A study of Mus musculus with 6 samples.

Results

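The 6 genes described here have been reported in human liver cancer cells as effectors of AEG-1, the protein astrocyte elevated gene 1 encoded by Mtdh, in resistance to chemotherapy. They are Tfcp2, Dpyd, Abcb1a, Abcb1b, Igfbp7 and Tyms, chosen by name as genes linked to AEG-1 in the drug resistance of liver cancer. All 6 were on the array, among 12393 genes with a probe set of a single gene symbol, and they had 12 such probe sets in all. Each gene was represented by its brightest probe set, the one with the highest mean over the arrays. The data are 6 Affymetrix mouse arrays of primary hepatocytes, 3 from Alb/AEG-1 mice and 3 from wild-type (WT) mice. The Alb/AEG-1 line is transgenic for AEG-1 overexpression restricted to hepatocytes, Alb standing for albumin, and WT mice were its controls. All mice were of a mixed B6/CBA strain, and all cells were cultured without treatment on collagen and collected 24 h after plating. Age and sex of the mice, the number of founder lines, and whether the samples labelled biological replicates came from separate animals or cultures were not stated in the sources used here. The p-values therefore measure the spread between the samples, which may be technical.

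AEG-1 is a scaffold and RNA-binding protein that is raised in many carcinomas. In human liver cancer cells it has been linked to fluorouracil resistance through the transcription factor TFCP2 (also called LSF), which activates the gene of thymidylate synthase, the enzyme that fluorouracil blocks, and through dihydropyrimidine dehydrogenase (DPYD), which degrades the drug. It has been linked to doxorubicin resistance through the efflux pump P-glycoprotein (ABCB1), in that case at the level of translation, which RNA arrays do not measure. IGFBP7 is a secreted protein that binds insulin-like growth factors, acts as a growth suppressor in liver cancer cells and has been reported as lowered by AEG-1. Mice have 2 genes, Abcb1a and Abcb1b, where humans have ABCB1.

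Of the 6 genes, 1 passed the test for a difference between genotypes (16.7%), and that gene, Abcb1a, was lower in Alb/AEG-1 hepatocytes. Over all 12393 genes the same test called 15.9%, so the share among the 6 genes was near that of the array as a whole. The test was limma with Benjamini-Hochberg adjustment over all genes, two-sided, at an adjusted p of 0.05. In the direction of Abcb1a it called 9.05% of all genes, and in the other direction, where 0 of the 6 genes passed, 6.83%. By unadjusted p under 0.05, 2 of the 6 genes passed, against 28.9% of all genes. The median of the 6 differences was 0.0022 and their median size 0.065 on the log2 scale, beside 0.010 and 0.10 over all genes. The genotypes did not overlap for 2 of the 6 genes, Abcb1a and Igfbp7, and for 34.5% of all genes. Differences are given throughout as Alb/AEG-1 minus WT in log2 units of RMA expression.

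The arrays had medians from 5.61 to 5.64 log2 units. The overexpressed gene, Mtdh, had 10.72, 10.40 and 10.81 log2 units in Alb/AEG-1 hepatocytes, against 8.75, 8.78 and 8.64 in WT hepatocytes, at its brightest probe set. That probe set alone among its 6 passed the test (difference 1.92, SE 0.10, limma adjusted p = 2.04e-05). The others had differences of -0.16, 0.0046, -0.075, -0.27 and 0.24, and the mean of all 6 gave 0.28 (limma adjusted p = 0.0116). Of 10 hepatocyte markers 9 were measured, all at or above the median gene, and 0 passed the test, with differences from -0.07 to 0.13. Their summed signal on a linear scale was 127139 to 130106 in Alb/AEG-1 arrays and 125439 to 128813 in WT arrays. Of the 6 genes, Dpyd and Igfbp7 lay above the median gene signal of 6.06 log2 units, and the other 4 lay under it. Among the 6196 genes under that median the test called 6.96%, against 24.8% of the 6197 at or above it. RMA compresses differences at low signal, so a fold there is likely to be understated.

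Abcb1a encodes one of the mouse P-glycoproteins, ATP-driven pumps of the cell membrane that expel many hydrophobic drugs, doxorubicin among them. Its brightest probe set, 1419759_at, had 3.96, 3.93 and 4.05 log2 units in Alb/AEG-1 hepatocytes, against 4.30, 4.52 and 4.62 in WT hepatocytes. All 3 Alb/AEG-1 arrays were below all 3 WT arrays, a separation in that direction found for 17.6% of all genes. Abcb1a fell by 0.50 log2 units, or 1.42-fold (SE 0.09, 95% confidence interval -0.70 to -0.30, limma adjusted p = 0.00687). The second probe set, 1419758_at, had 3.46, 3.42 and 3.38 log2 units in Alb/AEG-1 hepatocytes, against 4.07, 4.04 and 3.74 in WT hepatocytes. It gave a difference of -0.53 (SE 0.09, limma adjusted p = 0.00836 over all probe sets, of which 12.0% passed), so both probe sets of the gene fell by a similar amount. They ranked at the 27.8 and 17.5 percentiles of signal among all probe sets, and the Abcb1a call was kept under all 14 alternative settings that measured the gene, with differences from -0.59 to -0.43.

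Abcb1b, the neighbouring gene and the second P-glycoprotein, had a single probe set, 1418872_at. It had 3.50, 3.59 and 3.40 log2 units in Alb/AEG-1 hepatocytes, against 3.36, 3.41 and 3.52 in WT hepatocytes. The genotypes overlapped, with a difference of 0.066 (SE 0.07, 95% confidence interval -0.099 to 0.23, limma adjusted p = 0.608). The interval corresponds to a ratio of 0.934 to 1.17, at a signal in the lowest 12.9% of probe sets. To compare the response of the 2 genes, Abcb1a minus Abcb1b was taken on each array. It was 0.46, 0.34 and 0.66 log2 units in Alb/AEG-1 arrays, against 0.95, 1.11 and 1.10 in WT arrays, where its absolute size depends on the probes and only its difference between genotypes is comparable. The mean was 0.48 ± 0.16 in Alb/AEG-1 arrays and 1.05 ± 0.09 in WT arrays (SD, n = 3 each). The difference was -0.57, beside -0.50 for Abcb1a alone, and all 3 Alb/AEG-1 values were below all 3 WT values. A response of Abcb1b may not be measurable at a signal this low, so the comparison cannot show that the 2 genes respond differently. The two-sided exact permutation test gave p = 0.1, the smallest that this test can give with 3 arrays against 3, so it cannot pass 0.05 whatever the size of the difference.

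**Figure D1:**
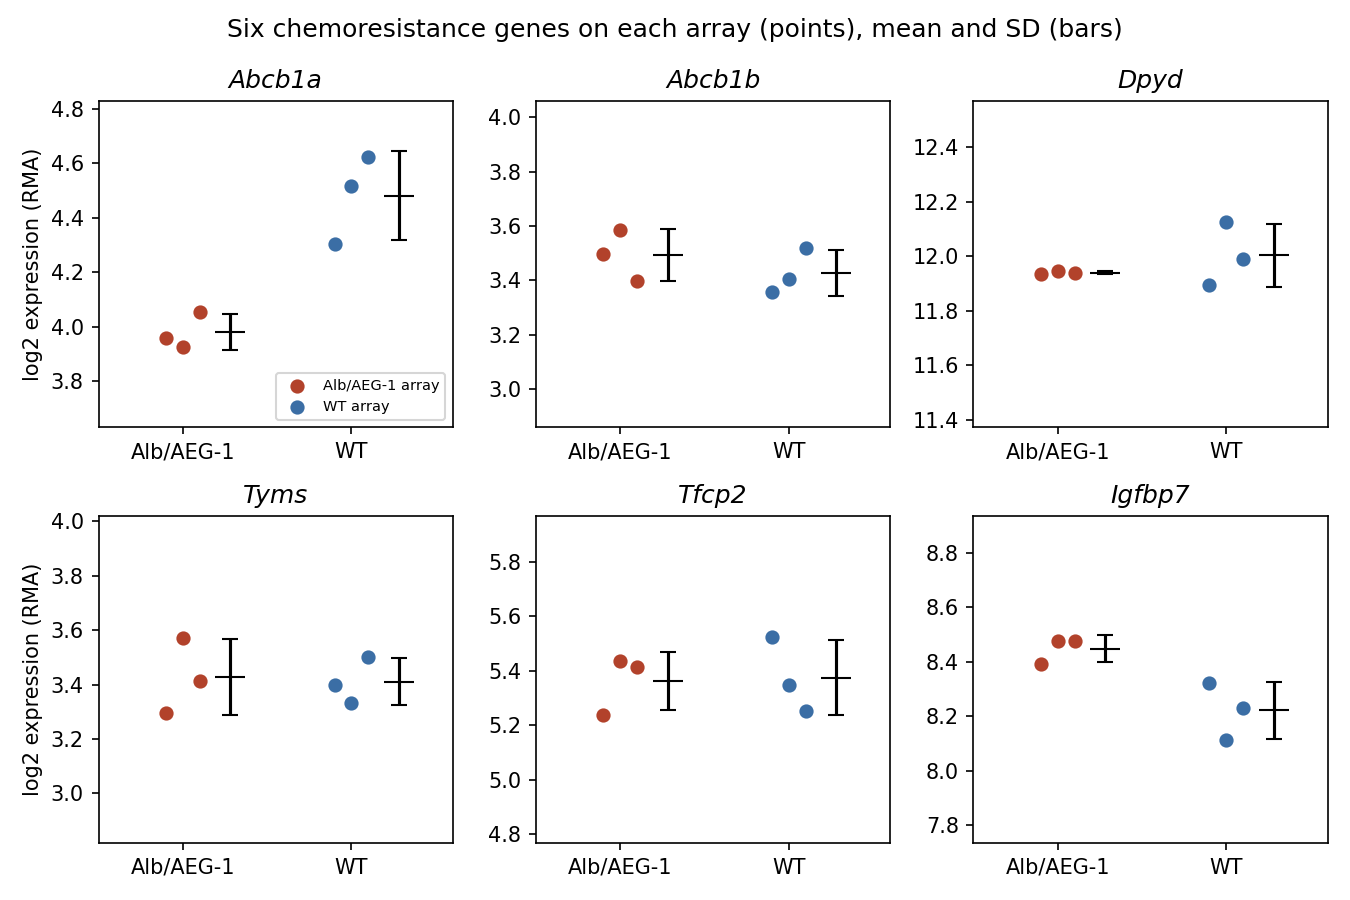
Log2 expression (RMA) of the 6 genes at their brightest probe sets, with a point for each array, and the mean and SD of each genotype as a bar beside the points (Alb/AEG-1 left, WT right, n = 3 each). Every panel spans the same height in log2 units. The genotypes are separate for Abcb1a, lower in Alb/AEG-1, and for Igfbp7, higher in Alb/AEG-1, and overlap for the other 4 genes.

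Promoter windows of the paralogs Abcb1a and Abcb1b are shown, as the 250 bases before an annotated transcription start of each gene (RefSeq, GRCm38.p6). Both are on the plus strand and outside the transcribed part of the gene as annotated from that start. They lie at chr5:8566841-8567090 for Abcb1a and chr5:8797897-8798146 for Abcb1b. Capitals mark matches on either strand to the CCAAT box (its letters as named), the GC box with letters GGGCGG, the TATA box read as TATAA, or the stricter of the CP2 repeats described with the Tyms promoter. Matches to the looser CP2 repeat are not capitalised. The marked matches do not overlap each other.
Abcb1a: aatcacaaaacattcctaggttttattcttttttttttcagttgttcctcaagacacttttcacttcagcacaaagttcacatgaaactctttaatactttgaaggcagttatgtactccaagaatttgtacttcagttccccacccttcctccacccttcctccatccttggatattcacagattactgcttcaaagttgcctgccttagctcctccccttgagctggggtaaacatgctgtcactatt
Abcb1b: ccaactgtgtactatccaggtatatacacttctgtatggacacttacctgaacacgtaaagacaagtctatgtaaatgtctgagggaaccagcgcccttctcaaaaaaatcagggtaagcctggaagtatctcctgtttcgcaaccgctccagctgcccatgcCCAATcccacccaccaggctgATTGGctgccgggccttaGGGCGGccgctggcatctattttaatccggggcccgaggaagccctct
The Abcb1b window held 2 matches to the CCAAT box, which NF-Y binds, and 1 to the GC box GGGCGG, which Sp1-type factors bind. The Abcb1a window held none of these. Among 32851 mouse promoter windows of this length, 33.8% held a CCAAT match, 32.7% a GC box match and 22.8% a match to TATAA, which neither window held. The windows had a GC content of 40.4% for Abcb1a and 52.8% for Abcb1b, beside a median of 52.4%. A match is a description of letters in the window and shows no binding. No other start of either gene was examined, so a missing match describes the window shown and not every promoter of the gene. Whether hepatocytes use these starts, and whether the windows bear on the calls of the 2 genes, was not tested.

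Among ABC transporters of drugs, 10 of 11 listed genes were measured, of which 3 fell and 0 rose, with a list median of -0.10. The share changed was 30%, beside 15.9% of all genes in either direction and 9.05% that fell. Among genes at or above the median signal, under which 4 of the 10 lay, the test called 24.8%. The count was 2 with any single array left out. The 3 were Abcb1a, Abcb4 and Abcc3. Abcb4, the phospholipid translocator of the canalicular membrane, follows Abcb1a and Abcb1b on chromosome 5, so that these 3 protein-coding genes are neighbours. It had 10.09, 10.21 and 9.95 log2 units in Alb/AEG-1 hepatocytes, against 10.52, 10.43 and 10.42 in WT hepatocytes. Abcb4 fell by 0.38 (SE 0.08, limma adjusted p = 0.0138), a call kept under all 15 alternative settings. Abcc3, an export pump of the basolateral membrane, had a difference of -0.24 (SE 0.07) at the very edge of the threshold (limma adjusted p = 0.04998), and that call was lost on leaving out any single array of the 6. Abcc6, also of the ABCC family, had -0.10 (limma adjusted p = 0.402) and did not pass. The transporters that did not pass included Abcc2 and Abcg2, canalicular pumps for drug conjugates and for many anticancer drugs, with differences of -0.10 and 0.02 (named after their values were seen).

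Transcription factors known to act on Abcb1 genes were measured beside the transporters. Of 15 listed, 13 were measured, 4 fell, 1 rose and 8 did not pass, with a median of -0.12. The share changed was 38.5%, beside 15.9% of all genes and 24.8% of genes at or above the median signal, and 1 of the 13 lay under that median. The count of 5 was 3 without Alb/AEG-1 replicate 1 or 3 or WT replicate 2 or 3, and 4 without either of the other arrays. The xenobiotic receptors Nr1i2 (PXR) and Nr1i3 (CAR) fell by 0.41 (SE 0.08, limma adjusted p = 0.0115) and by 0.36 (SE 0.06, limma adjusted p = 0.00484). Nr1i2 had 6.36, 6.40 and 6.35 log2 units in Alb/AEG-1 hepatocytes, against 6.95, 6.67 and 6.71 in WT hepatocytes, and its second probe set fell as well. Egr1, an immediate early zinc finger factor, fell by 0.49 (SE 0.06, limma adjusted p = 0.000888). These 3 calls were kept under every alternative setting that measured the gene. Nfyb, a subunit of the CCAAT-binding factor NF-Y, rose by 0.26 (SE 0.06, limma adjusted p = 0.0288). That call was lost on leaving out any array other than Alb/AEG-1 replicate 2. Its second probe set rose by 0.49 and passed (SE 0.06, limma adjusted p = 0.00111 over all probe sets). Foxo1 fell by 0.34 (SE 0.09, limma adjusted p = 0.0385), but that call was lost on leaving out any array other than WT replicate 1, and only 1 of its 4 probe sets passed. Whether any of these changes bears on Abcb1a was not tested.

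Dpyd encodes dihydropyrimidine dehydrogenase, the first and rate-limiting enzyme of uracil and thymine breakdown, which in liver removes most administered fluorouracil. Its brightest probe set, 1427946_s_at, had 11.94, 11.95 and 11.94 log2 units in Alb/AEG-1 hepatocytes, against 11.90, 12.13 and 11.99 in WT hepatocytes. The Alb/AEG-1 arrays lay within the range of the WT arrays. The difference was -0.063 (SE 0.07, 95% confidence interval -0.22 to 0.094, limma adjusted p = 0.607), which as a ratio spans 0.858 to 1.07. The other probe set, 1427945_at, had 9.69, 9.79 and 9.59 log2 units in Alb/AEG-1 hepatocytes, against 9.69, 10.15 and 9.83 in WT hepatocytes, and a difference of -0.20 (SE 0.12, limma adjusted p = 0.326 over all probe sets). Both probe sets were bright, at the 97.3 and 90.1 percentiles, so low signal does not limit them, and neither was higher in Alb/AEG-1 hepatocytes on average. The 2 enzymes that act after Dpyd in the same route, named after their values were seen, did not pass either, with differences of -0.0059 for Dpys (limma adjusted p = 0.965) and -0.14 for Upb1 (limma adjusted p = 0.117).

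In the wider list of pyrimidine breakdown and fluoropyrimidine activation, 22 of 24 genes were measured, 4 rose, 2 fell and 16 did not pass. The list median was -0.06. The share changed was 27.3%, beside 15.9% of all genes. It was near the 24.8% of genes at or above the median signal, under which only 2 of the 22 lay. Cda, cytidine deaminase, which converts cytidine and cytidine analogue drugs to uridine forms, had 6.95, 7.01 and 6.98 log2 units in Alb/AEG-1 hepatocytes, against 6.04, 5.94 and 5.80 in WT hepatocytes. Cda rose 2.08-fold (1.05, SE 0.07, limma adjusted p = 6.37e-05). Uck2, a uridine and cytidine kinase that phosphorylates fluorouridine, had 9.16, 9.07 and 9.02 log2 units in Alb/AEG-1 hepatocytes, against 8.19, 7.99 and 8.00 in WT hepatocytes. Uck2 rose 2.03-fold at that probe set (1.02, SE 0.07, limma adjusted p = 8.97e-05), while its other probe sets had -0.06 and 0.24 and did not pass, and the mean of the 3 gave 0.40. The Cda and Uck2 calls were kept under all 15 alternative settings. Tk2, the mitochondrial thymidine kinase, fell by 0.35 (SE 0.06, limma adjusted p = 0.00840), kept under all 14 settings that measured it.

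The other calls of that list were less stable. Dut, the pyrophosphatase that removes dUTP and so limits uracil in DNA, had 7.21, 6.79 and 7.27 log2 units in Alb/AEG-1 hepatocytes, against 7.56, 7.58 and 7.58 in WT hepatocytes. Dut fell by 0.49 (SE 0.12, limma adjusted p = 0.0287), but the call was lost on leaving out any single WT array, and its second probe set had -0.22 and did not pass. Upp2, a uridine phosphorylase of liver, rose by 0.22 (SE 0.05, limma adjusted p = 0.0211), lost on leaving out any array other than WT replicate 2. Slc29a1, an equilibrative nucleoside transporter, rose by 0.28 (SE 0.08, limma adjusted p = 0.0399), lost on leaving out any array other than Alb/AEG-1 replicate 3.

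Tyms encodes thymidylate synthase, which methylates dUMP with a folate cofactor and is the target of fluorouracil. The 3 probe sets annotated to Tyms alone had signals in the lowest 11.9% of probe sets. The brightest, 1427810_at, had 3.30, 3.57 and 3.41 log2 units in Alb/AEG-1 hepatocytes, against 3.40, 3.33 and 3.50 in WT hepatocytes. The genotypes overlapped, and the difference was 0.017 (SE 0.08, 95% confidence interval -0.17 to 0.21, limma adjusted p = 0.928). The others had differences of 0.035 and -0.081 and did not pass. A difference in Tyms RNA may not be measurable at signals this low.

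A brighter probe set, 1424991_s_at, is annotated to both Tyms and the pseudogene Tyms-ps, so it stood outside the rule and its signal cannot be given to Tyms alone. It had 6.95, 6.85 and 6.99 log2 units in Alb/AEG-1 hepatocytes, against 7.13, 7.07 and 7.20 in WT hepatocytes. All 3 Alb/AEG-1 arrays were below all 3 WT arrays, and the difference of -0.21 (SE 0.07) did not pass (limma adjusted p = 0.0853 over all probe sets). The probe set of Tyms-ps alone was the dimmest here, in the lowest 1.56% of probe sets, with a difference of 0.11 that did not pass.

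Proliferation markers, which follow the cell cycle as Tyms does in many cells, were lower in their list median (-0.16). Of 20 listed 19 were measured, 3 fell, 0 rose and 16 did not pass (15.8%, near the 15.9% of all genes). Their summed linear signal was 2019 to 2074 in Alb/AEG-1 arrays and 2359 to 2453 in WT arrays, and 13 of the 19 were under the median gene signal. Bright genes weigh most in that sum, and Pcna was the brightest of the list (9.95 log2 units in Alb/AEG-1 and 10.28 in WT hepatocytes). Mki67, Top2a, Bub1, Aurka, Aurkb and Plk1 had differences from -0.016 to 0.13. Ccna2, Ccnb2, Cdk1 and Birc5 had differences from -0.33 to -0.16. None of these passed (named after their values were seen). Pcna, the DNA polymerase clamp, fell by 0.32 (SE 0.05, limma adjusted p = 0.00594), kept under all 15 settings. The replication helicase genes Mcm3 (-0.37) and Mcm5 (-0.32) passed narrowly (limma adjusted p = 0.0486 and 0.0496). The other probe sets of Mcm3 had differences from -0.086 to -0.0069, none past the test, and its call was lost with the mean of its probe sets and when probe sets matching several transcripts were left out. The count of 3 fallen markers was 1 without Alb/AEG-1 replicate 1 or WT replicate 2. The Mcm3 call was lost on leaving out any array other than WT replicate 3, and the Mcm5 call on leaving out any array other than WT replicate 1. Another helicase gene, Mcm4, had -0.22 (limma adjusted p = 0.0510) and passed under 4 of 15 settings. Its second probe set had -0.65 and did not pass (limma adjusted p = 0.0726 over all probe sets). The part of proliferation in the signal of the shared Tyms probe set was not tested.

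In the thymidylate and folate cycle, 13 of 19 listed genes were measured, 2 rose, 0 fell and 11 did not pass, with a median of 0.017. The share changed was 15.4%, near the 15.9% of all genes. It was under the 24.8% of genes at or above the median signal, under which 2 of the 13 lay. The count of 2 was 5 with the mean of all probe sets, with only genes above the median signal and with a variance trend. Ggh, gamma-glutamyl hydrolase, which trims the glutamate tails that keep folates and antifolate drugs in the cell, had 8.25, 8.27 and 8.23 log2 units in Alb/AEG-1 hepatocytes, against 7.56, 7.65 and 7.65 in WT hepatocytes. Ggh rose 1.54-fold (0.63, SE 0.05, limma adjusted p = 0.000249). Mthfd2, a mitochondrial folate enzyme, rose by 0.49 (SE 0.09, limma adjusted p = 0.00865), with its pair of probe sets past the test. Both calls were kept under every alternative setting that measured the gene. The liver folate enzymes Ftcd and Aldh1l1 had 0.19 and -0.19 and did not pass (limma adjusted p = 0.0566 and 0.0567).

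Tfcp2 encodes the CP2 family transcription factor LSF. Its single probe set, 1418159_at, had 5.24, 5.43 and 5.41 log2 units in Alb/AEG-1 hepatocytes, against 5.52, 5.35 and 5.25 in WT hepatocytes. The genotypes overlapped, with the lowest array in Alb/AEG-1 and the highest in WT, and the difference was -0.013 (SE 0.09, 95% confidence interval -0.21 to 0.19, limma adjusted p = 0.952), a ratio of 0.863 to 1.14. The signal lay at the 46.4 percentile of probe sets. Of the 6 listed CP2 and grainyhead factors 5 were measured, with 0 changed by limma and 0 at an unadjusted p under 0.05. The closest paralog, Ubp1, had -0.04 (limma adjusted p = 0.808), and Tfcp2l1, Grhl1 and Grhl2 had 0.20, -0.12 and -0.09, none past the test at the brightest probe set (limma adjusted p from 0.256 to 0.646). A dimmer Grhl2 probe set went the other way and passed (0.32, SE 0.06, limma adjusted p = 0.00865 over all probe sets), while its remaining probe sets had -0.13 and -0.14 and did not pass. Tfcp2l1 passed without WT replicate 1 (limma adjusted p = 0.0233), in 1 of 14 alternative settings.

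The promoter of Tyms is shown because TFCP2 has been described as an activator of the human gene. It is the 250 bases before the annotated start, at chr5:30073626-30073875 on the minus strand (RefSeq, GRCm38.p6), written in the direction of transcription, with capitals as for the promoters above.
Tyms: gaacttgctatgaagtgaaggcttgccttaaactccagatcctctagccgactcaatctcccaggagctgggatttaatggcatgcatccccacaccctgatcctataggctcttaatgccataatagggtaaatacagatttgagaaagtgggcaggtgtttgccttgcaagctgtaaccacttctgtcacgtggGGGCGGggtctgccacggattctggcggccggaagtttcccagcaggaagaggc
The window held 1 match to the GC box and none to a direct repeat of CTGG with 6 bases between the copies, a half-site of the kind that CP2 factors bind, searched on both strands and present in 2.78% of all windows. The CP2 consensus repeat at the same spacing, which is looser and takes in the stricter one, was also absent, and 48.0% of all windows hold it. Of the 6 promoter windows, those of Abcb1b and Igfbp7 each held 1 match to the looser repeat. No match says only that these letters are not in this window.

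Igfbp7 encodes insulin-like growth factor binding protein 7, which in liver is also made by endothelial and stellate cells. Its brightest probe set, 1423584_at, had 8.39, 8.47 and 8.48 log2 units in Alb/AEG-1 hepatocytes, against 8.32, 8.11 and 8.23 in WT hepatocytes. All 3 Alb/AEG-1 arrays were above all 3 WT arrays, a separation in that direction found for 16.9% of all genes. The difference of 0.23 (SE 0.07, 95% confidence interval 0.069 to 0.38, a ratio of 1.17) did not pass (limma adjusted p = 0.0599). It passed under 5 of 15 alternative settings, 1 of them without WT replicate 1 (0.28, adjusted p = 0.0389), and the adjusted p ran from 0.0137 to 0.198. The other probe sets disagreed in size. The second brightest, 1437804_at, had 7.17, 7.12 and 7.20 log2 units in Alb/AEG-1 hepatocytes, against 7.22, 6.99 and 7.20 in WT hepatocytes, a difference of 0.03 (limma adjusted p = 0.876 over all probe sets). The dimmest, 1423585_at, had a difference of 0.13 that did not pass.

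**Figure D2:**
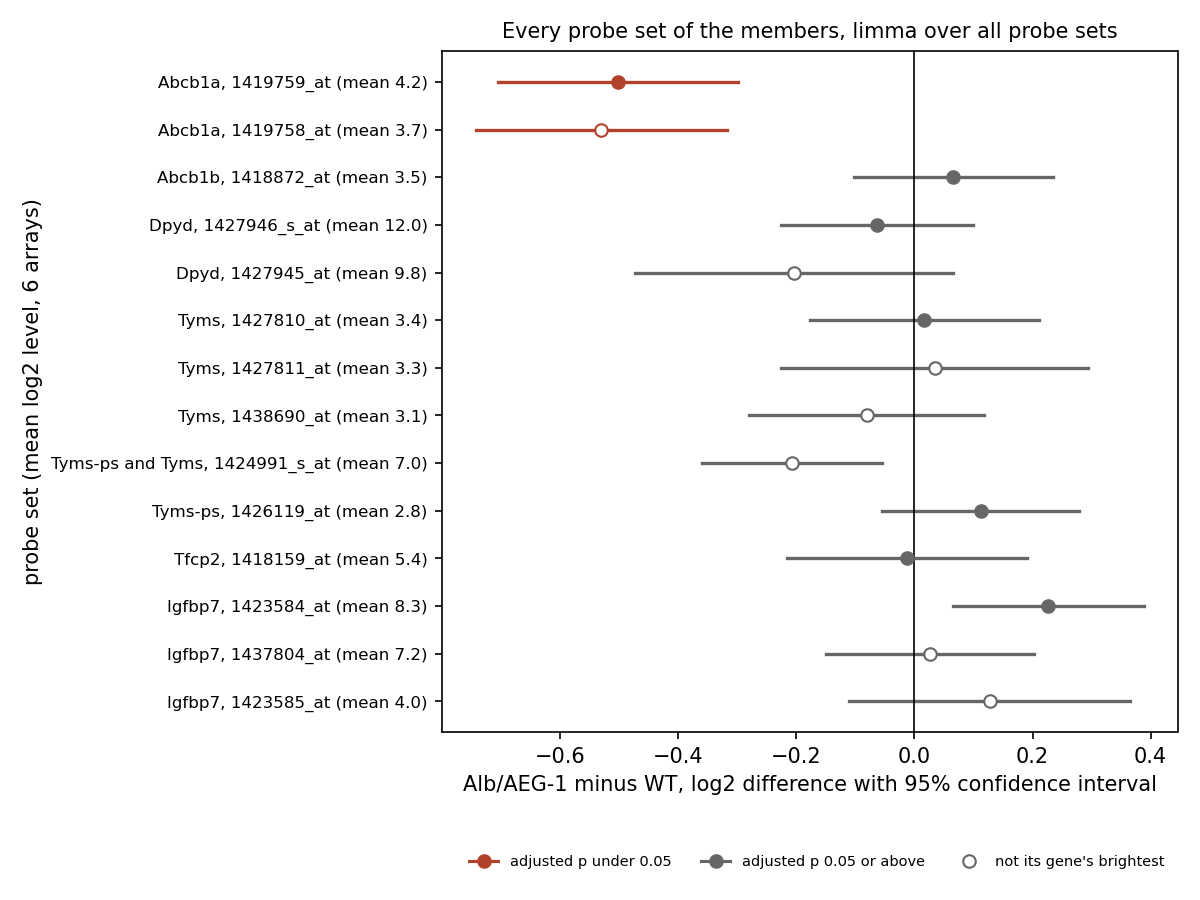
Difference between genotypes (Alb/AEG-1 minus WT, log2) with its 95% confidence interval for each of the 12 probe sets of the 6 genes, and for the probe sets of Tyms-ps and of Tyms-ps and Tyms together. Filled points are the brightest probe set of a gene, and red marks an adjusted p under 0.05 over all probe sets. Both Abcb1a probe sets lie near -0.5, and the interval of every other probe set annotated to 1 of the 6 genes includes 0 except that of the brightest Igfbp7 probe set.

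Markers of the other liver cells that make Igfbp7 were measured on the same arrays. Of 14 sinusoidal endothelial markers, all measured, 2 rose, 0 fell and 12 did not pass (14.3%, near the 15.9% of all genes), with a median of 0.11. Their summed linear signal was 1064 to 1122 in Alb/AEG-1 arrays and 887 to 983 in WT arrays. Clec4g, a lectin of sinusoidal endothelium, rose by 0.50 (SE 0.08, limma adjusted p = 0.00633), kept under all 15 settings, although its second probe set did not pass. Kdr, a receptor for vascular endothelial growth factor, rose by 0.41 (SE 0.09, limma adjusted p = 0.0196), lost without Alb/AEG-1 replicate 2 or 3 or without WT replicate 2 or 3. Lyve1 and Stab2 had 0.22 and 0.25 and did not pass. Cdh5 and Stab1, the only endothelial markers with a negative difference, had -0.11 and -0.05 and did not pass (named after their values were seen). Of 14 stellate cell markers, 1, Lum, passed (0.20, limma adjusted p = 0.0442, lost on leaving out any single array). That share was 7.14%, beside the 15.9% of all genes. The stellate list had a median of 0.14 and a summed signal of 1163 to 1254 in Alb/AEG-1 arrays and 1084 to 1173 in WT arrays. Its differences ran from -0.055 to 0.32. Dcn (-0.040), Lrat (-0.055), Hand2 (-0.024), Col3a1 (-0.015) and Timp1 (-0.0014) were the only stellate markers with a negative difference. They did not pass (named after their values were seen). The part of these cells in the Igfbp7 signal was not tested, and in RNA from mixed cells fewer cells of a type and less RNA per cell cannot be told apart.

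Kupffer cell and macrophage markers gave 4 risen and 1 fallen of 13 measured (38.5%, beside 15.9% of all genes and 24.8% of genes at or above the median signal, under which 3 of the 13 lay), with a median of 0.20 and a summed signal of 1330 to 1348 in Alb/AEG-1 arrays and 1125 to 1237 in WT arrays. Ptprc (0.61, SE 0.07, limma adjusted p = 0.00114) and the mannose receptor gene Mrc1 (0.46, SE 0.07, limma adjusted p = 0.00462) rose under every alternative setting that measured them. Marco rose by 0.69 (limma adjusted p = 0.0209), lost without Alb/AEG-1 replicate 1 or WT replicate 2 or 3. Cd163 fell by 0.31 (limma adjusted p = 0.0174), lost without Alb/AEG-1 replicate 1 or 2 or WT replicate 3. C1qc, a complement component gene, rose by 0.35 (limma adjusted p = 0.0260), lost without Alb/AEG-1 replicate 1 or 2 or WT replicate 1 or 2. The 8 markers that did not pass ran from -0.10 (Csf1r) to 0.30 (C1qb). Among them were Clec4f at 0.06 and Adgre1 at 0.16 (named after their values were seen). The count of 5 was 2 without Alb/AEG-1 replicate 1, and 3 without Alb/AEG-1 replicate 2 or WT replicate 2 or 3.

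Among insulin-like growth factor binding proteins and their partners, all 12 listed genes were measured, 2 rose, 0 fell and 10 did not pass (16.7%, near the 15.9% of all genes), with a median of 0.04. Igfbp2, the binding protein whose liver level changes with fasting and insulin, had 12.36, 12.35 and 12.33 log2 units in Alb/AEG-1 hepatocytes, against 11.82, 11.75 and 11.72 in WT hepatocytes. Igfbp2 rose by 0.58 (SE 0.05, limma adjusted p = 0.000357), kept under all 14 settings that measured it. Igfals, the acid-labile subunit that holds insulin-like growth factors in the circulation, rose by 0.29 (SE 0.06, limma adjusted p = 0.0192), lost without Alb/AEG-1 replicate 1 or 2 or WT replicate 2 or 3. Igfbp3, dim at 3.45 log2 units in Alb/AEG-1 hepatocytes and 3.71 in WT hepatocytes, had -0.26 and did not pass (limma adjusted p = 0.0940).

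**Figure D3:**
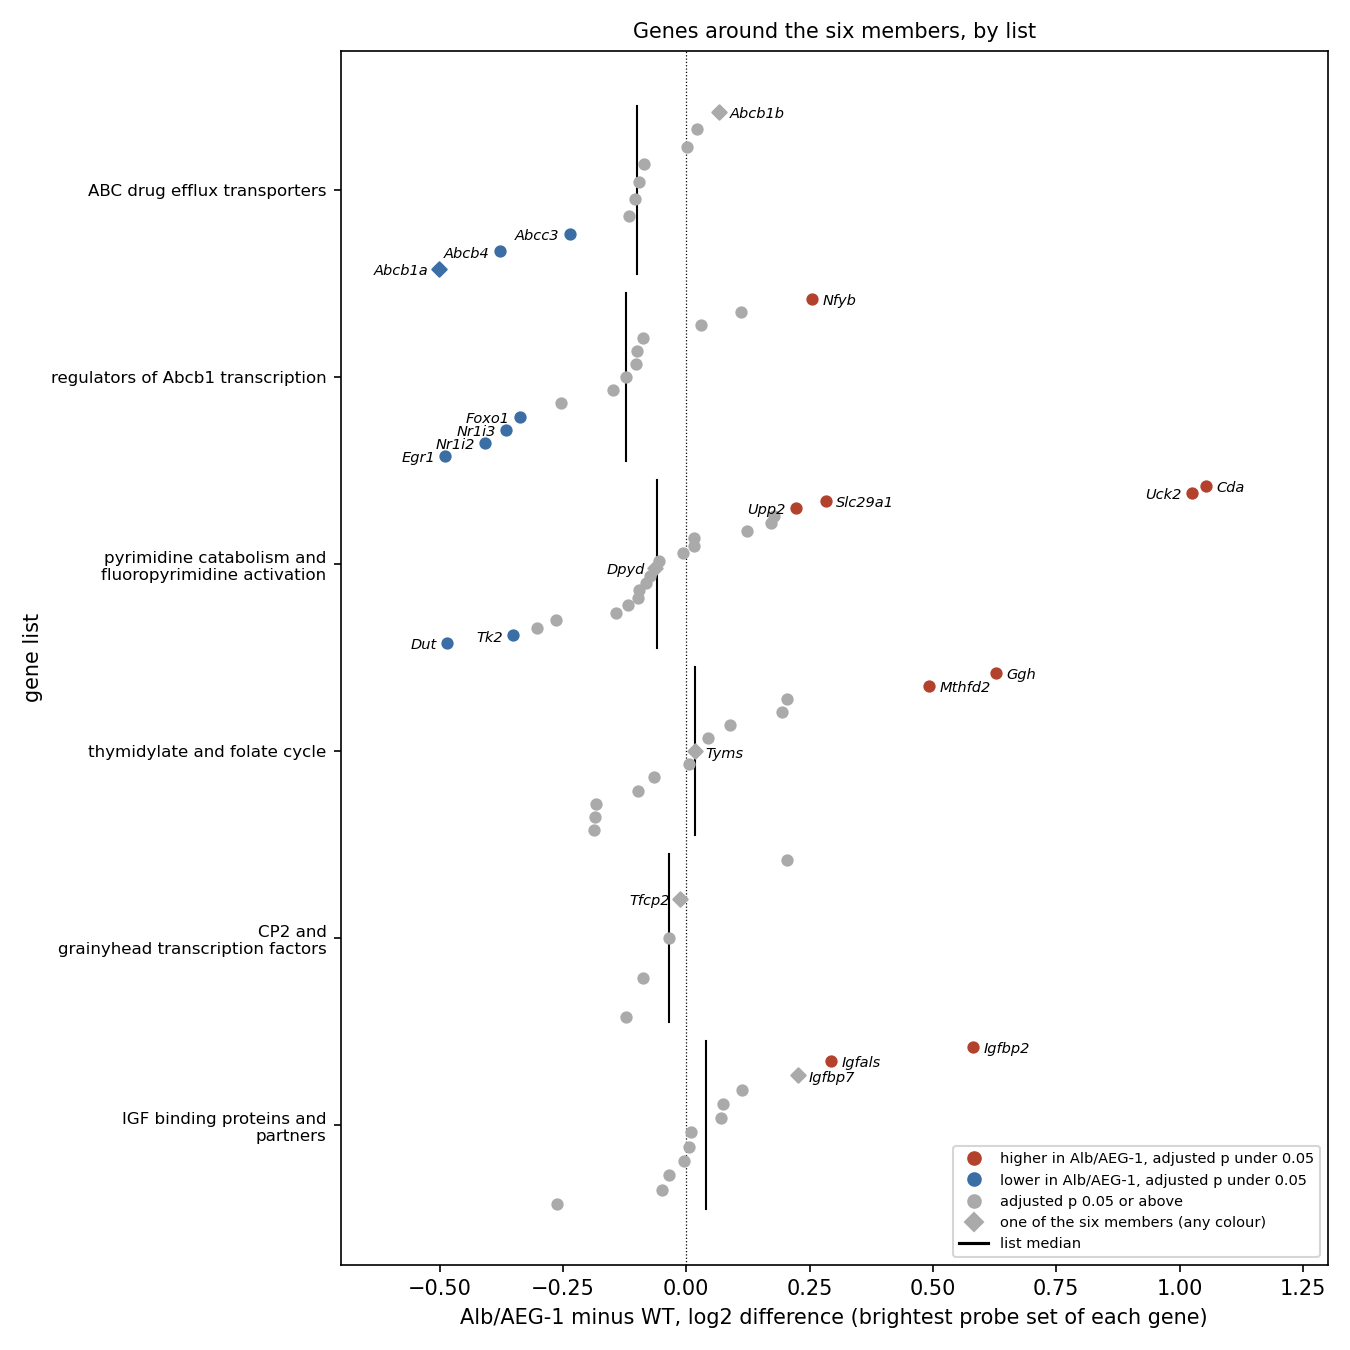
Difference between genotypes (Alb/AEG-1 minus WT, log2) of each measured gene in 6 lists around the chemoresistance genes, each gene at its brightest probe set. Red and blue mark genes higher and lower in Alb/AEG-1 at an adjusted p under 0.05, grey marks the rest, diamonds are the 6 genes and vertical bars are list medians. Cda and Uck2 lie above 1, Abcb1a is the lowest of its list, and Dpyd, Tyms and Tfcp2 lie near 0.

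The genes with the profile most like each of the 6 over the 6 arrays were found by the root mean square difference between log2 profiles, each centred on its mean, among 6116 named genes at or above the median signal. For Abcb1a they were Smc4, a condensin subunit gene, and Snhg6, a small nucleolar RNA host gene, at 0.04 log2 units each, where the Abcb1a profile itself varied by 0.27 about its mean. Smc4 and Snhg6 had genotype differences of -0.50 and -0.55. For Igfbp7 they were Tbl3 and Ezr, at 0.02 and 0.03 log2 units, with genotype differences of 0.21 and 0.23. Tbl3, like Igfbp7, did not pass (limma adjusted p = 0.0651). As the nearest of 6116 genes over 6 arrays, these matches show a genotype difference of similar size and no more. For the other 4 genes the nearest profiles were Bpnt1 and Mttp for Dpyd (0.02 each), Dhx40 and Rassf3 for Abcb1b (0.02 and 0.03), Kpna3 and Wbp4 for Tyms (0.02 and 0.04) and Ap2a1 and Amotl2 for Tfcp2 (0.03 and 0.04). The profiles of those 4 varied by only 0.07 to 0.10 about their mean, within the spread between arrays, so likeness to them describes array-to-array variation.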

How the data were processed

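The deposited values are log2 expression per probe set, which the authors obtained by RMA, run in Affymetrix Expression Console according to the submitters' processing notes. Its version and the set of arrays normalized at once were not stated there. RMA equalises distributions, so changes are relative to the rest of the transcriptome. Of 22690 probe sets, 64 were controls, and of the rest 20380 carried 1 symbol, 691 several and 1555 none. All 6 member symbols matched the GRCm38.p6 gene table. Each gene was represented by its brightest probe set (12393 genes) and tested with limma 3.58.1 (lmFit, eBayes, two-sided) in R 4.3.3, adjusted by Benjamini-Hochberg at 0.05. The other probe sets of a gene were tested in a fit over all probe sets. The members, 11 gene lists and tests were chosen with earlier results of these data known. Genes named are the members, Mtdh, up to 4 of each list by smallest p, and the 2 nearest profiles per member. Other genes were named because they passed the test, stand next to a member in a pathway or belong to a marker list. These were chosen after their values were seen. In data simulated on these 12393 genes, 200 genes at a time were changed by a set amount. Of these, limma recovered 0% at a change of 0.25, 94.5% at 0.5 (10 false calls) and 100% at 1 (15 false calls). In the real data 1967 genes passed, so the adjustment was stricter in the simulation. Changes near 0.25 could pass in the real data, as Upp2 did at 0.22 (limma adjusted p = 0.0211). The simulated rates therefore do not give the power of the real test. Alternatives covered gene representation, filtering, scaling, variance prior, array weights, leaving out arrays and a replicate block. The number of arrays limits the precision.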

Additional observations from a re-analysis of the deposited data

How the results depend on the processing

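Under 15 alternative settings, plus 1 chosen after seeing the data, Abcb1a kept its direction and call wherever it was measured (adjusted p from 0.000392 to 0.0330), and Dpyd and Abcb1b kept their signs and did not pass. Igfbp7 passed with only genes above the median signal (0.23, adjusted p = 0.0165), after quantile normalization (0.25, adjusted p = 0.0479), with a variance trend (0.23, adjusted p = 0.0137) and with array weights (0.22, adjusted p = 0.0497). With 1 array left out it ranged from 0.17 to 0.28 and passed without WT replicate 1. The count of members past the threshold was therefore 2 under quantile normalization, the variance trend and array weights, and 1 to 2 with an array left out. With the filter at the median the 1 member that passed was Igfbp7, since Abcb1a, Abcb1b, Tfcp2 and Tyms were not tested there. Tyms changed sign, without passing, as the mean of its probe sets (-0.0097), after quantile normalization (-0.015), with array weights (-0.017) and at the probe set shared with Tyms-ps (-0.21, the setting chosen after seeing the data), and ranged from -0.056 to 0.082 with an array left out. Tfcp2 ranged from -0.073 to 0.062 with an array left out, its sign turned without Alb/AEG-1 replicate 1 and without WT replicate 1. All genes past the threshold numbered 1967, and 1267 to 1700 with an array left out, the lowest without Alb/AEG-1 replicate 1. In all lists together 29 genes passed, 18 without probe sets that match several transcripts (some genes then have none) and 17 to 28 with an array left out, but 35 with the mean of probe sets, 37 with only genes above the median signal and 38 with a variance trend. Under those 3 settings the thymidylate and folate list had 5 called genes in place of 2. With the variance trend 1 hepatocyte marker passed, in place of 0. Correlations of deviations were -0.01, -0.01 and 0.10 between arrays of the same number, and -0.07 to 0.07 between arrays of different number. They do not settle whether the numbers pair the arrays. With the replicate block 1505 genes and 1 member, Abcb1a, passed (-0.50, adjusted p = 0.0139). Abcb1a minus Abcb1b ranged from -0.65 to -0.50. Apart from these, causes of the shifts were not tested. Low signal limits Tyms, Abcb1b and Abcb1a.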
